A study of Mus musculus with 4 samples.

Results

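Vesicular and plasma membrane transporters of glutamate and GABA were followed across nuclei of the mouse hippocampus. The 8 genes were chosen by name: Slc17a6, Slc17a7 and Slc17a8 (the vesicular glutamate transporters VGLUT2, VGLUT1 and VGLUT3), Slc32a1 (the vesicular GABA transporter VGAT), Slc1a1, Slc1a2 and Slc1a3 (the plasma membrane glutamate transporters EAAC1, GLT-1 and GLAST) and Slc6a11 (the GABA transporter GAT-3). All 8 were among the 20211 gene symbols listed in every library, and all 8 had counts in every library.

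The study prepared nuclei from hippocampi of mice lacking monoacylglycerol lipase (MAGL, the product of Mgll, which degrades the endocannabinoid 2-arachidonoylglycerol) and sequenced their RNA with a droplet kit built for joint RNA and chromatin profiling. There were 4 libraries, 1 per genotype: wild type, total MAGL knockout, astrocyte-specific MAGL knockout and neuron-specific MAGL knockout. The labels used here give no promoter or Cre line behind the cell-specific deletions, no deleted part of Mgll, no age and no number of animals per library, and no treatment separates the groups. By their labels, the last 3 are called total-labelled, then astrocyte-labelled, then neuron-labelled below, and 4 values in a row always follow the order wild-type, total-labelled, astrocyte-labelled, neuron-labelled.

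Glutamate and GABA are loaded into synaptic vesicles by proton-driven transporters of the SLC17 and SLC32 families, and the vesicular transporter a neuron makes is the usual mark of the transmitter it releases. After release, glutamate is cleared by sodium-coupled SLC1 transporters, of which GLT-1 and GLAST are best known from astrocytes and EAAC1 from neurons. GABA is taken back up by SLC6 transporters, of which GAT-3 lies mainly on astrocytes.

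The deposited matrices held 9369, 31243, 10731 and 8945 barcodes, with 81623644 to 193307038 UMIs (unique molecular identifiers, each 1 counted RNA molecule) per library and a median of 5456 to 8904 UMIs per barcode. After filtering and doublet removal 8978, 24481, 10087 and 8669 nuclei were left. The total-labelled library was the largest and the shallowest, and 20.6% of its barcodes were called doublets, against 1.86% to 5.27% in the other libraries. Nuclei called female made up 0.0245% of the total-labelled library and 41.0% to 47.0% of the others, so sex and genotype cannot be told apart for that library without the values from male nuclei. For that library a ratio from male nuclei is given below only for Slc17a7 in CA1-like nuclei. The other ratios given for that library include female wild-type nuclei and do not separate sex from genotype. Counts of called pairs from male nuclei are given with the other settings near the end. Of 58693 barcode sequences, 1580 occurred in more than 1 library. Between 10.5% and 17.8% of nuclei stayed in clusters without a name. Mgll, the targeted gene, stood at 102, 82.2, 107 and 105 CPM (a gene's UMIs scaled to the same UMI total in every class) in excitatory nuclei, at 103, 106, 113 and 104 in inhibitory nuclei and at 372, 353, 240 and 505 in astrocyte-like nuclei. Mgll RNA was therefore not lower in the neurons of the neuron-labelled library than in those of the wild-type library, and because the deleted part is not given, nuclear Mgll counts may lie outside it and do not check the labels.

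Nuclei were clustered without the 8 transporter genes or the other genes of glutamate and GABA handling, and clusters were named from marker lists. A class name means that its nuclei resemble that cell type on those markers. With 1 library per genotype no statistical test between genotypes exists, nuclei are not replicates, and every bracketed interval is a 95% interval that covers counting error only. Levels are in CPM and can be compared for 1 gene across classes but not between genes, whose lengths differ.

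The regions just before the transcription starts are shown for 5 members on which the class patterns below turn, with every match to GGGCGG, the core of an Sp-factor box, or to the TATA-box string TATAAA in capitals on either strand. They are 250 bases each from the RefSeq annotation of GRCm38.p6, written 5′ to 3′ on the strand of the gene, with the end nearest the start site on the right. Searched on both strands, GGGCGG lay in 32.7% and TATAAA in 12.4% of 32851 such windows of the genome.
Slc17a7, chr7:45163671-45163920, + strand: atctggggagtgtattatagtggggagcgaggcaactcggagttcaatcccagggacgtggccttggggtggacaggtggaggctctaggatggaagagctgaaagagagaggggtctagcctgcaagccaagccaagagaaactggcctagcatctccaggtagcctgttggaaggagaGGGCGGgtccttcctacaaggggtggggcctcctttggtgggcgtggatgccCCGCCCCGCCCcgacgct
Slc17a6, chr7:51621580-51621829, + strand: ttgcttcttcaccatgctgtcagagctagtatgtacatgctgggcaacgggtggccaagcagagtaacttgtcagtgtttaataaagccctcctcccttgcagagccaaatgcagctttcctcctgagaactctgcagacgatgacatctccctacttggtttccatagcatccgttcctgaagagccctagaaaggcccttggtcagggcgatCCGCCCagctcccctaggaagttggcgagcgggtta
Slc32a1, chr2:158610508-158610757, + strand: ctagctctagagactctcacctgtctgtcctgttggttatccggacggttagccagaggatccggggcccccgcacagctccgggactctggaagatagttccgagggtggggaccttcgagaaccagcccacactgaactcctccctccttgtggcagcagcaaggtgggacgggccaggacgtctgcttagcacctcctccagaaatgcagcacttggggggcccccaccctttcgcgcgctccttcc
Slc1a2, chr2:102706188-102706437, + strand: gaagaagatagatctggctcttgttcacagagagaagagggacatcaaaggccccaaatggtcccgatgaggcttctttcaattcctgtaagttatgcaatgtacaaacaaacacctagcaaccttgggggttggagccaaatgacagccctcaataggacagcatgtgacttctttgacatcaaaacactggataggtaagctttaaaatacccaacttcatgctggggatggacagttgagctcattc
Slc1a3, chr15:8710808-8711057, - strand: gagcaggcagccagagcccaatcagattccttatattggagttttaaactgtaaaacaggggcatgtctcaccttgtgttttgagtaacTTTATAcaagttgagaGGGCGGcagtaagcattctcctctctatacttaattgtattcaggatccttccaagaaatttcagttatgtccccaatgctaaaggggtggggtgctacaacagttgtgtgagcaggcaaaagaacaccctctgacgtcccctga

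GGGCGG or its reverse complement occurred 3 times before Slc17a7 and 1 time each before Slc17a6 and Slc1a3. TATAAA occurred 1 time, before Slc1a3, only as its reverse complement TTTATA on the strand of the gene. Neither string was found before Slc32a1 or Slc1a2, which says only that these letters are not in these windows. A second RefSeq start of Slc17a6 has its window at chr7:51624387-51624636. The Slc1a2 window lies inside the longer gene of the GENCODE M21 annotation (chr2:102658659-102790784).

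VGLUT1 RNA marked most excitatory classes, VGLUT2 RNA a smaller set that partly overlapped it, and VGAT RNA the inhibitory classes. VGLUT3 RNA was highest in 1 interneuron class. Slc17a7 (chr7:45163949-45176142) was high in every excitatory class of the hippocampus other than the Cajal-Retzius-like one, and low in every inhibitory class. In CA2/CA3-like nuclei it stood at 337, 316, 330 and 285 CPM. In CA1-like nuclei it stood at 284, 269, 291 and 237 CPM, and in dentate granule-like nuclei at 249, 239, 250 and 218 CPM. These 3 classes kept the same order in each library, and within each library the interval of CA2/CA3 lay above that of the dentate granule class. Mossy cell-like nuclei, of which there were 31 to 64 per library, had 256, 288, 259 and 198 CPM, with intervals that overlapped those of the dentate granule class. Subicular or cortical excitatory-like nuclei had 243, 243, 223 and 203 CPM and the remaining excitatory clusters 236, 220, 220 and 197 CPM.

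Slc17a7 was lower outside these classes. Immature neuron-like nuclei had 101 CPM in the wild-type and 109.9 CPM in the total-labelled library, and astrocyte-like nuclei had 63.9, 21.4, 128 and 71.3 CPM, from 4 to 23 UMIs. All inhibitory classes together had 8.12, 4.23, 4.91 and 4.33 CPM. In droplet data such low levels also arise from free RNA, and their source was not tested. Thalamic-like excitatory nuclei, found in numbers only in 2 libraries, had 77.2 CPM in the total-labelled and 91.1 CPM in the astrocyte-labelled library. Cajal-Retzius-like nuclei had 2 UMIs in the total-labelled library and 0 in the wild-type library, where a count of 0 allows up to 26.8 CPM (3 UMIs).

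**Figure D1:**
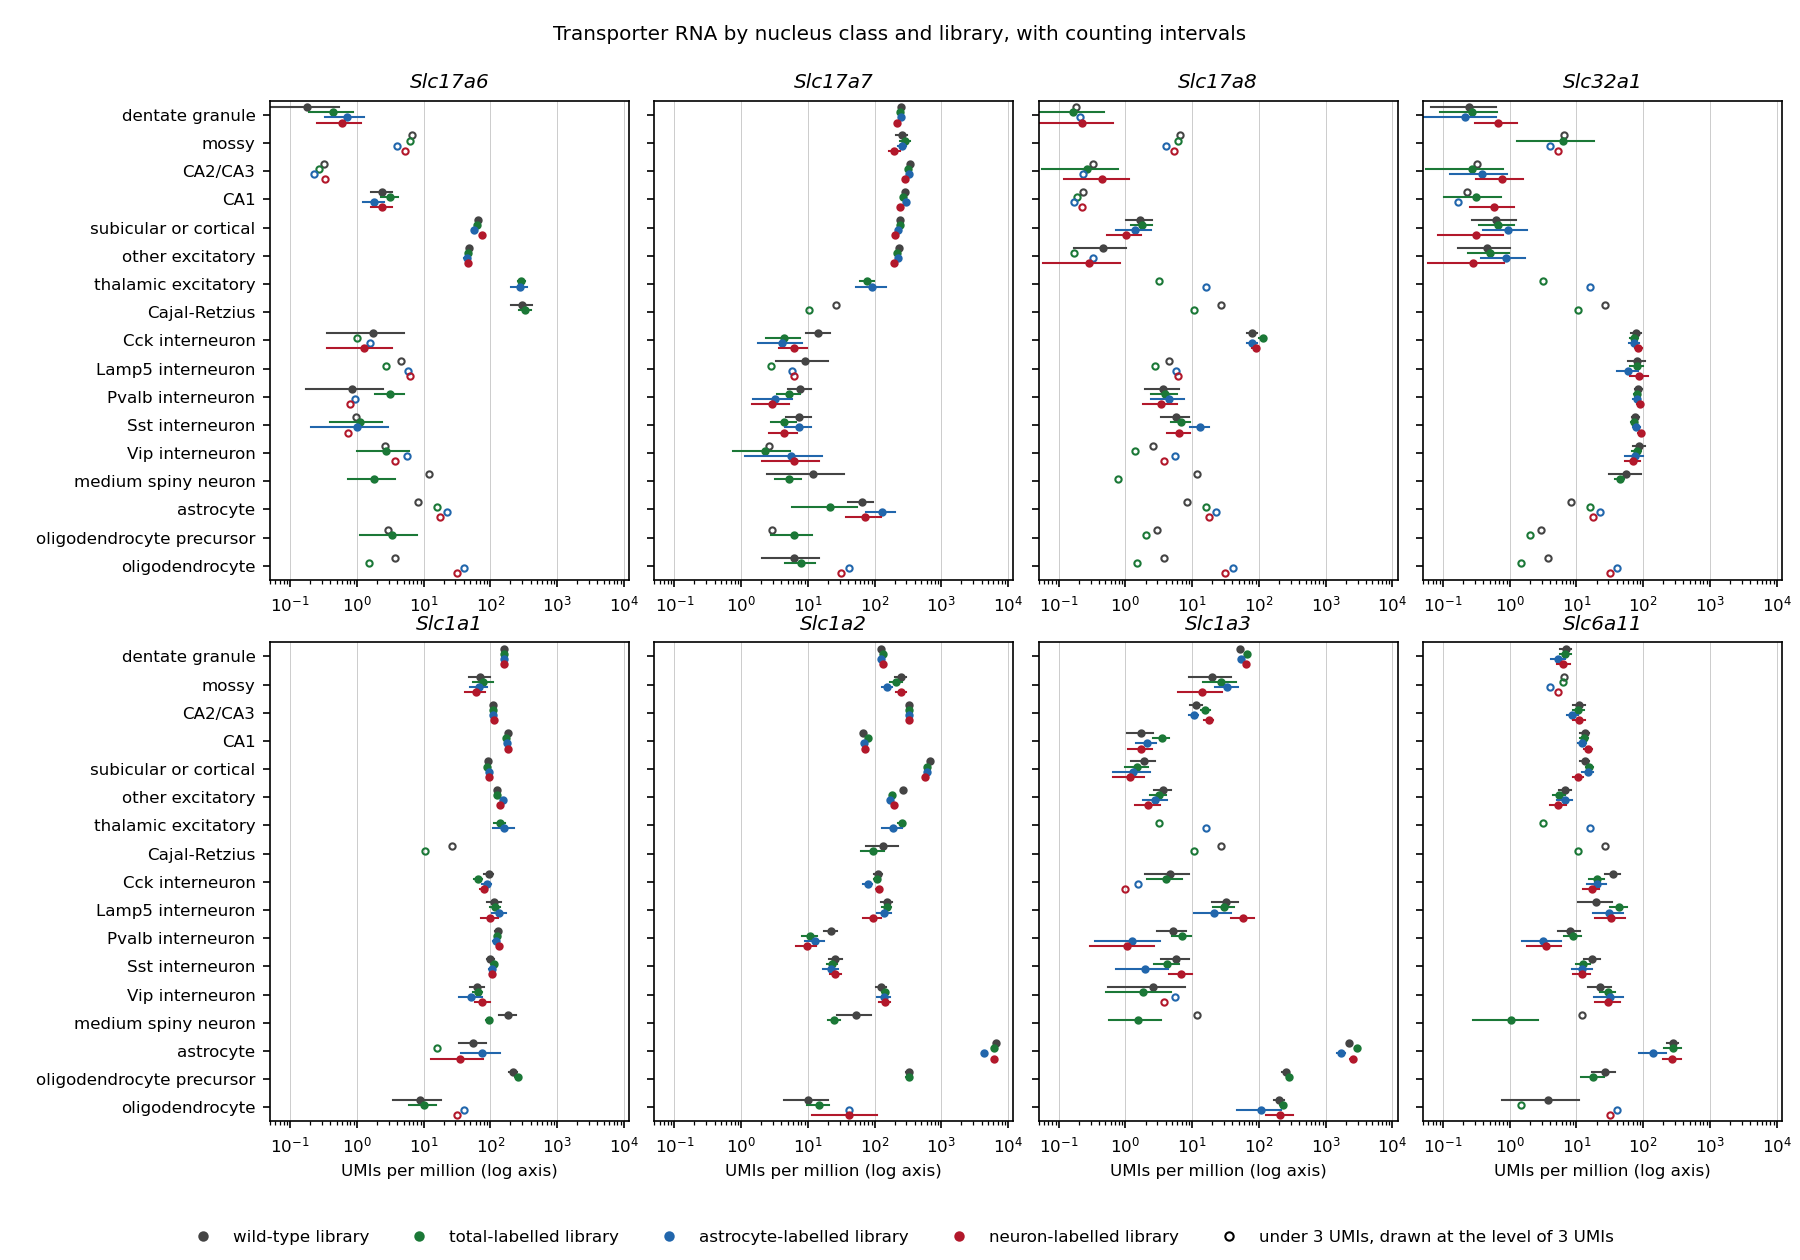
Levels of the 8 transporter genes (log axis, CPM) in each nucleus class, with 1 point per library and counting intervals; open points stand for fewer than 3 UMIs and are drawn at the level of 3 UMIs. Slc17a7 lay between 197 and 337 in the excitatory classes other than the thalamic-like and Cajal-Retzius-like ones, Slc32a1 between 59.5 and 93.7 in all 5 interneuron classes, and Slc1a2 and Slc1a3 were highest in astrocytes.

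Slc17a6 (chr7:51622006-51671119) was highest in excitatory classes where Slc17a7 was low. Cajal-Retzius-like nuclei had 295 CPM in the wild-type and 335 CPM in the total-labelled library, and thalamic-like nuclei had 291 and 273 CPM in the total-labelled and astrocyte-labelled libraries. The intervals of these 2 classes overlapped. Subicular or cortical nuclei stood at 64.6, 62.8, 57.2 and 74.6 CPM and the remaining excitatory clusters at 47.7, 46.0, 44.8 and 47.0 CPM. CA1-like nuclei had only 2.39, 3.10, 1.80 and 2.36 CPM, and dentate granule-like nuclei 0.182, 0.442, 0.701 and 0.593 CPM. CA2/CA3-like nuclei had 1 or 2 UMIs in each library.

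The clusters of the subicular or cortical class differed in Slc17a6. The cluster led by Atp10b, Dsc3 and Npsr1 had Slc17a6 at 132, 140, 102 and 129 CPM beside Slc17a7 at 166, 169, 187 and 152 CPM. The Kcnh8 and Sntb1 cluster had Slc17a6 at 60.9, 63.0, 51.6 and 65.9 CPM, and the Ccn2 and Arhgap25 cluster at 7.08, 5.57, 5.58 and 4.38 CPM. Among the remaining excitatory clusters, the one led by Fn1 and Nts had Slc17a6 at 162, 115, 96.4 and 105 CPM. In the plot of excitatory clusters the thalamic-like cluster stands at the end with high Slc17a6 and low Slc17a7, the CA2/CA3-like clusters stand at the other end, and the Atp10b cluster lies between.

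Both transcripts were also found in single nuclei. Within the subicular or cortical class, 26.9%, 13.6%, 18.0% and 25.5% of nuclei had at least 1 UMI of both Slc17a6 and Slc17a7. Slc17a7 was detected in 77.5%, 60.1%, 68.8% and 71.1% of the nuclei with Slc17a6 and in 82.2%, 66.1%, 71.6% and 74.95% of those without. Nuclei with Slc17a6 RNA thus had Slc17a7 RNA nearly as often as the rest of the class. The median depth of the class was 8739, 4898, 6068 and 7632 UMIs. As a background, 4.57%, 2.61%, 1.93% and 1.62% of Pvalb interneuron-like nuclei, with median depths from 5690 to 10162 UMIs, had a UMI of Slc17a7.

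**Figure D2:**
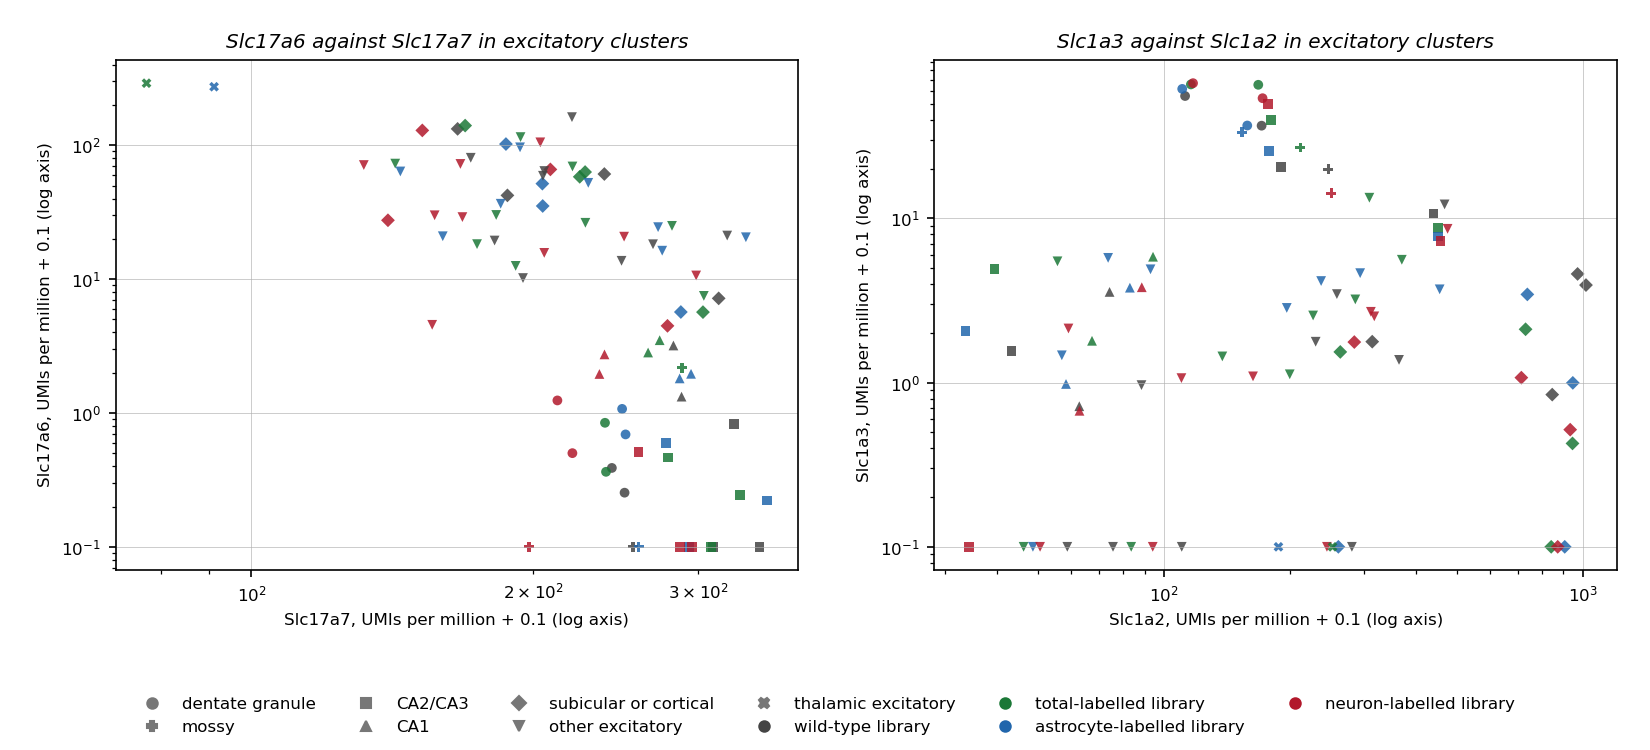
Excitatory clusters by library, 1 point per cluster and library: Slc17a6 against Slc17a7 on the left and Slc1a3 against Slc1a2 on the right, both in CPM plus 0.1 on log axes; shapes give the class and colours the library. On the left the thalamic-like cluster sits at the top left and the CA2/CA3-like clusters at the bottom right; on the right the dentate granule clusters lie between 36.6 and 66.6 on the Slc1a3 axis, and 1 CA2/CA3-like cluster reaches 49.7.

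Slc17a8 (chr10:89574020-89621253) was highest in Cck interneuron-like nuclei, at 79.0, 114, 78.7 and 89.4 CPM. Sst interneuron-like nuclei had 5.74, 6.76, 13.0 and 6.33 CPM, and Pvalb interneuron-like nuclei had 3.68, 3.93, 4.44 and 3.46 CPM. The dentate granule, CA1, CA2/CA3, subicular or cortical and remaining excitatory classes stayed below 2 CPM. Within the subicular or cortical class, the Kcnh8 and Sntb1 cluster had 5.62 CPM with the libraries pooled, close to the Sst and Pvalb levels. Mossy cell-like nuclei had 0 UMIs. Cajal-Retzius-like nuclei had 2 UMIs in the wild-type library (17.9 CPM) and 0 in the total-labelled library. VGLUT3 is known from Cck basket cells, and this class was named without it.

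The transcript was detected in only a minority of Cck interneuron-like nuclei, and most of its UMIs lay in nuclei with several copies. A nucleus without a UMI may still hold the transcript. Slc17a8 was detected in 20.3%, 15.1%, 14.0% and 19.03% of the 148, 438, 215 and 268 nuclei of the class. The nuclei with 3 or more UMIs numbered 15, 39, 19 and 28, and they held 84.1%, 88.7%, 88.2% and 89.1% of all Slc17a8 UMIs of the class. For Slc32a1 in the same nuclei, 12, 9, 10 and 25 nuclei with 3 or more UMIs held 34.8%, 13.3%, 21.99% and 32.1% of the UMIs. Slc17a8 was therefore concentrated in a subset of nuclei in every library, while Slc32a1 was spread over the class. In CA1-like nuclei, a class that should lack the gene, with median depths from 6830 to 11532 UMIs against 6642 to 11534 in the Cck class, 0 or 1 nucleus per library had a UMI of Slc17a8.

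**Figure D3:**
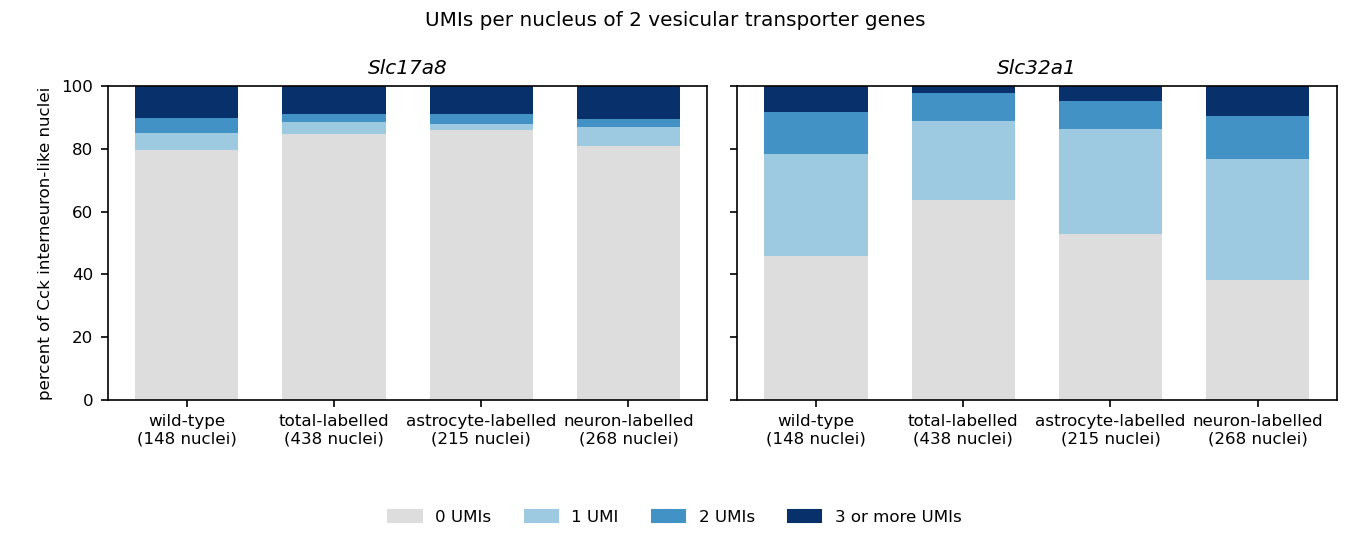
Percent of Cck interneuron-like nuclei with 0, 1, 2 or at least 3 UMIs of Slc17a8 (left) and Slc32a1 (right) in each library, with the number of nuclei under each bar. Most nuclei had no UMI of Slc17a8, while the nuclei in which it was detected often carried 3 or more UMIs. Where detected, Slc32a1 was mostly seen as 1 UMI per nucleus.

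VGLUT3 and VGAT RNA occurred in the same nuclei. Slc32a1 was detected in 56.7%, 43.9%, 50.0% and 60.8% of Cck interneuron-like nuclei with Slc17a8, and in 53.4%, 34.9%, 46.5% and 62.2% of those without. The nuclei with Slc17a8 were 30, 66, 30 and 51, too few for these shares to be told apart by counting.

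Slc32a1 (chr2:158610767-158615748) marked every inhibitory class at a similar level. All inhibitory nuclei together stood at 80.6, 76.7, 76.8 and 88.2 CPM. The 5 interneuron classes lay between 59.5 and 93.7 CPM in all libraries, and within the wild-type library their intervals overlapped: 77.3 CPM in Cck, 80.4 in Lamp5, 84.3 in Pvalb, 76.2 in Sst and 86.8 in Vip interneuron-like nuclei. Medium spiny neuron-like nuclei, which are GABAergic projection neurons, had 55.7 CPM in the wild-type and 44.5 CPM in the total-labelled library. Dentate granule, CA1, CA2/CA3 and subicular or cortical nuclei all stayed below 1 CPM.

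RNA of the plasma membrane glutamate transporters was counted in neuron-like classes as well as in glia-like ones. Slc1a1 (chr19:28835049-28913960) was highest among the named classes in oligodendrocyte precursor-like nuclei, at 220 CPM in the wild-type and 255 CPM in the total-labelled library. CA1-like nuclei stood at 184, 173, 176 and 182 CPM and dentate granule-like nuclei at 160, 159, 162 and 161 CPM. CA2/CA3-like nuclei had 110, 111, 109 and 115 CPM, close to all inhibitory nuclei at 107, 103, 106 and 106 CPM. The order CA1, dentate granule, CA2/CA3 was the same in every library and their intervals did not overlap, while CA2/CA3 and inhibitory nuclei did not differ beyond their intervals. Subicular or cortical nuclei had 93.7, 89.8, 95.3 and 94.3 CPM. Among interneurons, Vip interneuron-like nuclei stood at 64.0, 64.3, 51.9 and 75.9 CPM, and Pvalb interneuron-like nuclei stood at 130, 128, 121 and 136 CPM. Mature oligodendrocyte-like nuclei had 8.78 and 10.0 CPM in the wild-type and total-labelled libraries, far below the precursors. The gene 4430402I18Rik overlaps Slc1a1 on the other strand and had 16617 UMIs over the libraries, and since no source used here gives the strand setting of the counting, reads of the pair cannot be told apart.

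Slc1a2 (chr2:102658659-102790784) was highest in astrocyte-like nuclei, at 6468, 6140, 4360 and 6172 CPM. Subicular or cortical nuclei came next among the neurons with 676, 608, 603 and 559 CPM. CA2/CA3-like nuclei stood at 327, 331, 329 and 332 CPM, oligodendrocyte precursor-like nuclei at 330 and 325 CPM, dentate granule-like nuclei at 125, 135, 124 and 131 CPM and CA1-like nuclei at 67.0, 79.1, 68.8 and 71.9 CPM. Sst and Pvalb interneuron-like nuclei were lowest among the neurons, with 25.8, 23.2, 21.9 and 25.8 CPM in the Sst class. The 11 astrocyte markers without Bmpr1b, which is also a leading gene of a CA1-like cluster, summed to 11.2 to 13.99 CPM in CA1-like and 30.8 to 42.2 CPM in CA2/CA3-like nuclei. Ntsr2 alone gave 22.9 to 33.7 CPM of the CA2/CA3 sum, and it is also a leading gene of the CA2/CA3-like cluster led by Lrp2, Fyb2 and Vit. The part of astrocyte RNA in the Slc1a2 levels was not tested. The 10 oligodendrocyte markers summed to 66.8 to 92.2 CPM in CA1-like and 209.98 to 271 CPM in CA2/CA3-like nuclei, while oligodendrocyte-like nuclei themselves had Slc1a2 at 10.0, 14.5, 27.2 and 41.9 CPM.

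Within the CA2/CA3-like class, Slc1a2 had 3 levels by cluster. The cluster led by Ifi203 and Mndal had 440, 451, 450 and 458 CPM, the cluster led by Vgll3 and Col6a1 had 191, 180, 178 and 177 CPM, and the cluster led by Lrp2, Fyb2 and Vit had 43.1, 39.3, 33.5 and 34.1 CPM. The intervals of these 3 clusters did not overlap in any library. In the subicular or cortical class the levels were 972, 946, 947 and 934 CPM in the cluster led by Kcnh8 and Sntb1, 846, 731, 738 and 714 CPM in the cluster led by Ccn2, and 314, 264, 261 and 285 CPM in the Atp10b and Dsc3 cluster that also had Slc17a6.

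Slc1a3 (chr15:8634124-8710764) was also highest in astrocyte-like nuclei, at 2257, 2995, 1688 and 2569 CPM. Oligodendrocyte precursor-like nuclei had 253 and 286 CPM and mature oligodendrocyte-like nuclei 201 and 226 CPM in the wild-type and total-labelled libraries. Dentate granule-like nuclei had 51.6, 65.3, 54.3 and 63.3 CPM. Immature neuron-like nuclei, of which there were 31 and 99, had 137 [76.9, 227] CPM in the wild-type and 59.5 [31.7, 102] CPM in the total-labelled library. Lamp5 interneuron-like nuclei had 31.8, 29.5, 21.1 and 58.0 CPM, and in the wild-type and neuron-labelled libraries their interval overlapped that of the dentate granule class. CA1-like nuclei had 1.69, 3.48, 2.08 and 1.70 CPM and CA2/CA3-like nuclei 11.4, 15.7, 10.5 and 17.7 CPM.

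The Slc1a3 signal of the dentate granule class was spread over many nuclei. At least 1 UMI was found in 28.4%, 21.4%, 25.5% and 29.3% of dentate granule-like nuclei, whose median depths were 7983, 4241, 5811 and 7020 UMIs. In CA1-like nuclei, which are deeper, the shares were 1.501%, 1.92%, 1.30% and 1.42%. Thinned to 1000 UMIs per nucleus, leaving out 12 to 82 shallower nuclei per library, the dentate shares were 4.85%, 6.79%, 5.51% and 5.40%, and the CA1 shares were at most 0.319%. The 11 astrocyte markers summed to 17.5, 15.5, 15.4 and 15.6 CPM in dentate granule-like nuclei and to 43.0, 42.9, 49.2 and 43.9 CPM in CA1-like nuclei. Bmpr1b, which is also a leading gene of a CA1-like cluster, gave most of the CA1 sum, and without it the sums were 17.5, 14.8, 14.7 and 14.7 CPM in the dentate and 11.2, 12.9, 13.99 and 13.1 CPM in the CA1 class. Of the 11, 9 or 10 were detected in the dentate class of each library and 10 or 11 in the CA1 class. The 10 oligodendrocyte markers summed to 403, 376, 392 and 381 CPM in dentate granule-like and 66.8, 92.2, 67.4 and 79.5 CPM in CA1-like nuclei. The part of glial RNA in the Slc1a3 level of the dentate class was not tested. By cluster, the cluster led by Dsp and Glis3 had 55.6, 65.4, 61.4 and 66.6 CPM and the cluster led by Plk5 and C1ql2 had 36.6, 65.1, 36.7 and 53.9 CPM, so the 2 were alike in the total-labelled library and the second was lower in the others. Within CA2/CA3, the Vgll3 and Col6a1 cluster had Slc1a3 at 20.6, 39.5, 25.7 and 49.7 CPM and the Ifi203 and Mndal cluster at 10.6, 8.63, 7.65 and 7.21 CPM, the reverse of their order for Slc1a2.

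Slc6a11 (chr6:114131241-114249952) was highest in astrocyte-like nuclei at 275, 278, 143 and 274 CPM. Vip interneuron-like nuclei had 22.8, 29.6, 31.5 and 29.9 CPM, Lamp5 interneuron-like nuclei 19.7, 43.3, 30.7 and 33.2 CPM and oligodendrocyte precursor-like nuclei 26.3 and 17.7 CPM. Cck interneuron-like nuclei had 34.9, 20.2, 20.2 and 16.8 CPM. Immature neuron-like nuclei had 64.1 and 27.5 CPM in the wild-type and total-labelled libraries, from 7 and 6 UMIs. CA1-like nuclei stood at 13.3, 13.0, 12.1 and 14.7 CPM and dentate granule-like nuclei at 6.86, 6.85, 5.33 and 6.38 CPM. The Vip and Lamp5 levels rest on 13 to 64 UMIs each, and within each library their intervals overlap.

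Astrocyte-like nuclei of the astrocyte-labelled library had the lowest level of Slc1a2, Slc1a3 and Slc6a11 alike. They numbered 32, under the 50 required for a ratio. Their 11 astrocyte markers summed to 2401 CPM against 3975, 3819 and 4144 CPM in the other libraries, and their 9 excitatory markers to 765 CPM against 433, 235 and 476 CPM. The part of these other nuclei or free RNA in the lower transporter levels was not tested.

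For each class with at least 50 nuclei in both libraries, ratios to the wild-type library were computed, and a gene was called where it was at least 1.5-fold higher or lower, with 1 UMI added on each side and at least 100 UMIs over the 4 libraries. The 3 comparisons share the wild-type library, so a value peculiar to it enters all 3. In dentate granule-like nuclei 0 of 5 members were called in any comparison, where 7.51%, 7.14% and 6.57% of all 13145 genes were called, in the order total-labelled, astrocyte-labelled, neuron-labelled. Every later set of 3 ratios keeps this order. Over all classes, 3 of 54 member and class pairs were called in the total-labelled library (1 higher, 2 lower), 4 of 47 in the astrocyte-labelled (1 higher, 3 lower) and 5 of 50 in the neuron-labelled library (1 higher, 4 lower). Over the same classes, 7.57%, 7.69% and 7.97% of gene and class pairs were called, so these counts lie near the background and are not a result about the members. No member was called in subicular or cortical nuclei, where 6.08%, 5.66% and 6.17% of genes were called, in Vip interneuron-like nuclei, with 6.63%, 13.7% and 11.6%, or in astrocyte-like nuclei, with 18.95% and 16.6%. None was called in mature oligodendrocyte-like nuclei of the total-labelled library either, with 6.63%, or in oligodendrocyte precursor-like nuclei, with 4.91%.

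**Figure D4:**
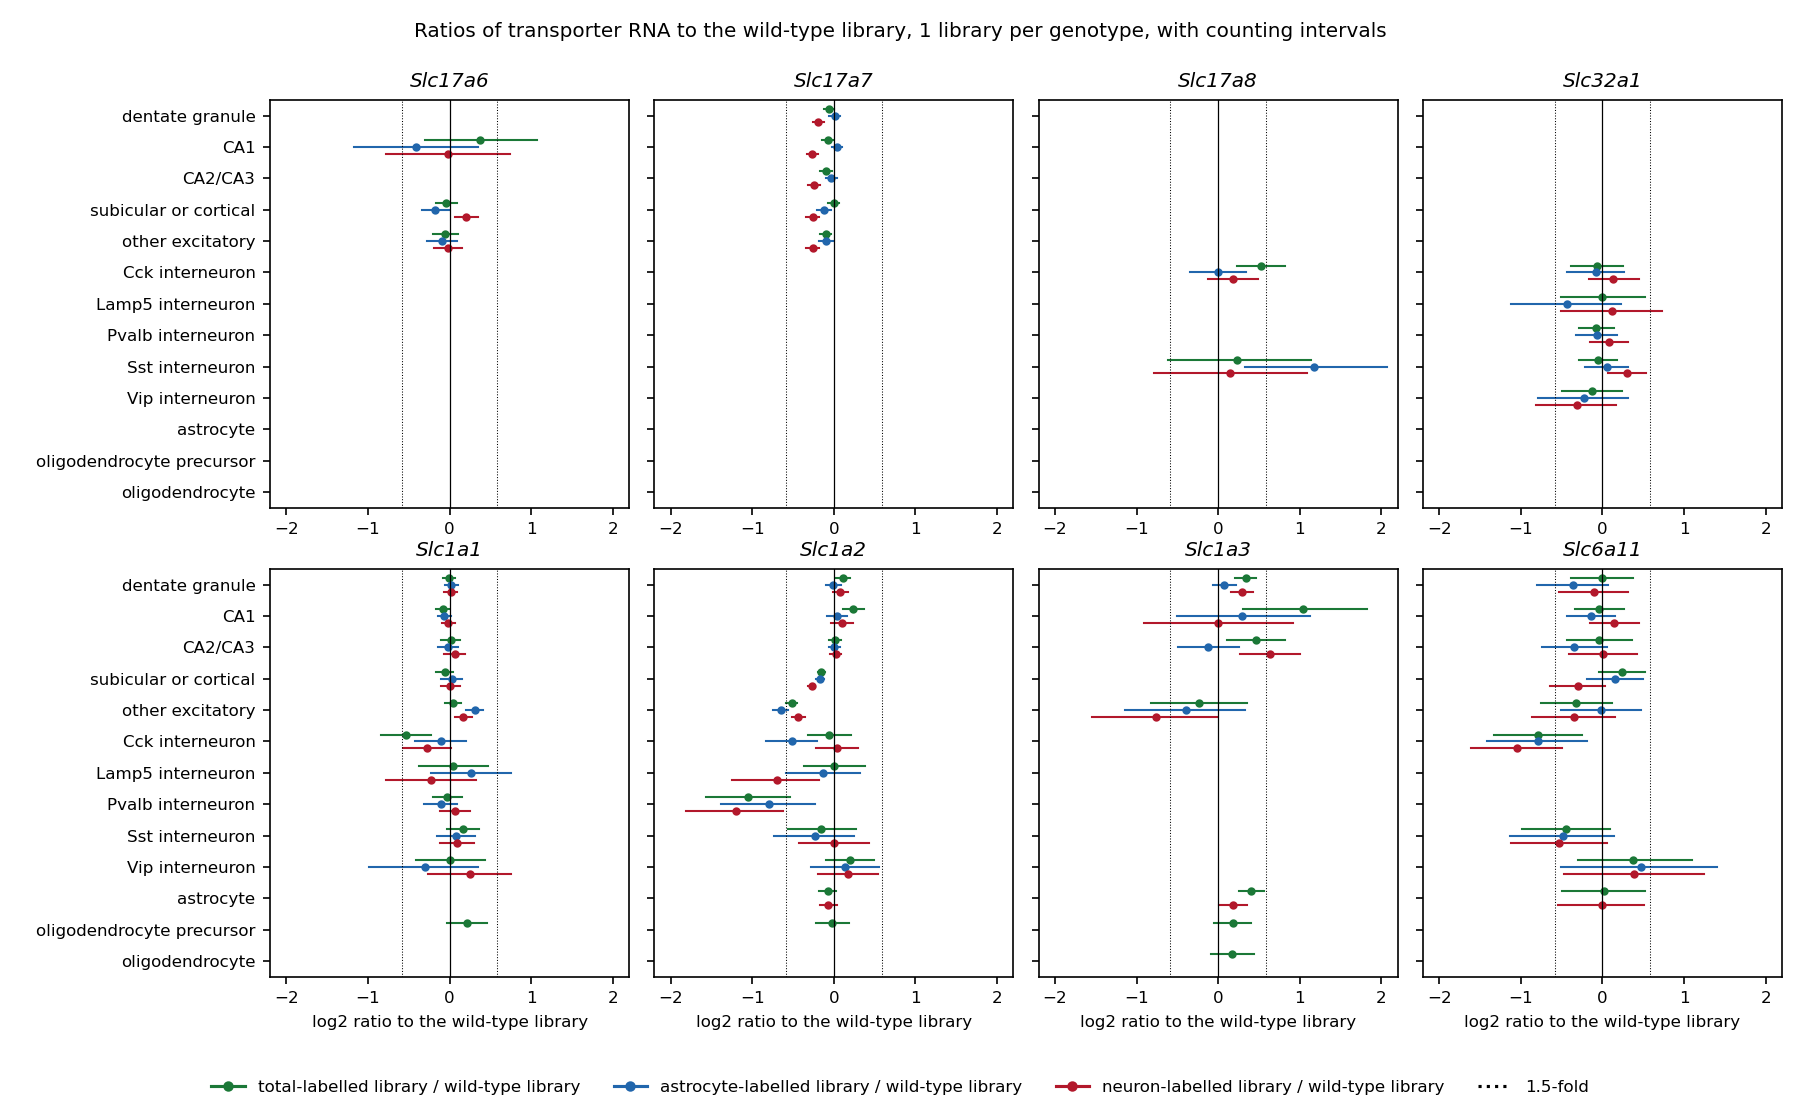
Log2 ratio of each labelled knockout library to the wild-type library for the 8 genes by class, with 95% counting intervals; dotted lines mark 1.5-fold, and only pairs with at least 50 nuclei in both libraries and enough UMIs are drawn. Slc17a7 in the neuron-labelled library lay below the wild-type library in all 5 excitatory classes, from -0.19 to -0.26. Slc1a2 in Pvalb interneuron-like nuclei lay below the wild-type library in all 3 comparisons. It did not in all of them with doublets kept or nuclei thinned, and the thinned intervals were wide.

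Slc17a7 in the neuron-labelled library lay below the wild-type library by a log2 ratio of -0.19 [-0.26, -0.12] in dentate granule-like nuclei, -0.26 [-0.33, -0.19] in CA1, -0.24 [-0.32, -0.17] in CA2/CA3, -0.26 [-0.34, -0.18] in the subicular or cortical class and -0.26 [-0.34, -0.18] in the remaining excitatory clusters. None of these intervals reached 0. Within the largest cluster alone the ratio was -0.13 [-0.26, 0.01] in the subicular or cortical class and -0.10 [-0.29, 0.08] in the remaining excitatory clusters. At cluster level it was lower in 18 of 18 excitatory clusters with 50 or more nuclei in both libraries, against 15 of 18 for the total-labelled and 9 of 17 for the astrocyte-labelled library. The clusters of a comparison come from the same pair of libraries and are not replicates. None of the class ratios passed 1.5-fold, and between 17.1% and 24.6% of all genes had a ratio at or below that of Slc17a7 in the same class. In male nuclei the ratios in these classes were -0.11, -0.14, -0.14, -0.24 and -0.31. With CA2/CA3 nuclei thinned to 1000 UMIs the ratio was -0.025 [-0.32, 0.27], an interval that also holds the ratio given above.

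Slc17a6 and Slc32a1 were not called in any class. Slc17a6 in subicular or cortical nuclei had ratios of -0.04 [-0.17, 0.09], -0.18 [-0.34, -0.01] and 0.21 [0.07, 0.34]. Within the largest cluster of the class, led by Atp10b and Dsc3, they were 0.08 [-0.07, 0.23], -0.38 [-0.57, -0.19] and -0.04 [-0.19, 0.12]. In the Fn1 and Nts cluster the wild-type level given above was higher than that of the other 3 libraries, with an interval of 140 to 187 CPM against at most 129 CPM at the upper end of theirs. Slc32a1 over all inhibitory nuclei had ratios of -0.07 [-0.20, 0.06], -0.07 [-0.22, 0.08] and 0.13 [-0.00, 0.26].

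Slc17a8 in Cck interneuron-like nuclei had ratios of 0.53 [0.24, 0.82], -0.01 [-0.35, 0.34] and 0.18 [-0.12, 0.48]. Since 39 nuclei held most of the UMIs of the total-labelled library, the interval understates the spread. The ratio had the other sign when doublets were kept (-0.22 [-0.49, 0.06]) and when nuclei were gated singly on markers (-0.18 [-0.57, 0.21]). It also did when nuclei were thinned to 1000 UMIs (-0.09 [-0.89, 0.78]). The neuron-labelled ratio also had the other sign, at -0.35 [-0.75, 0.06] gated and -0.62 [-1.60, 0.37] thinned. Each of these intervals spans both signs. In Sst interneuron-like nuclei Slc17a8 was called higher in the astrocyte-labelled library, at 1.17 [0.33, 2.07], from 18 wild-type and 39 astrocyte-labelled UMIs. The oligodendrocyte markers there summed to 136 CPM in the wild-type and 22.9 CPM in the astrocyte-labelled library. Oligodendrocyte-like nuclei had 0 UMIs of Slc17a8 in each library, and the part of oligodendrocyte RNA in the result was not tested. In the Sst class 2 wild-type nuclei held 44.4% and 5 astrocyte-labelled nuclei 46.2% of the Slc17a8 UMIs of their library. Here too the interval understates the spread. In the Sst comparisons 7.7%, 9.26% and 8.7% of genes were called.

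Slc1a1 had ratios near 0 in the large classes. They were -0.01, 0.02 and 0.01 in dentate granule-like nuclei, with intervals between -0.08 and 0.10, and -0.09, -0.06 and -0.02 in CA1-like nuclei. It was lower in Cck interneuron-like nuclei of the total-labelled library, at -0.54 [-0.84, -0.23]. The oligodendrocyte markers in these nuclei were also lower than in the wild-type library, as given below for Slc6a11, and their part in the result was not tested. In the remaining excitatory clusters of the astrocyte-labelled library Slc1a1 was higher, at 0.31 [0.21, 0.41]. Within the largest cluster of that group, which made up 31.3% of its wild-type and 16.2% of its astrocyte-labelled nuclei, this ratio was 0.09 [-0.28, 0.45].

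Slc1a2 in Pvalb interneuron-like nuclei was called lower in all 3 comparisons, with 22.1 CPM in the wild-type library against 10.7, 12.7 and 9.58 CPM. In these comparisons 7.17%, 7.86% and 7.7% of genes were called. The ratios were -1.05 [-1.57, -0.54], -0.80 [-1.39, -0.23] and -1.20 [-1.82, -0.62]. They share the 78 UMIs of the wild-type library. The astrocyte markers summed to 19.8, 14.6, 17.4 and 11.2 CPM in the same nuclei, highest in the wild-type library too. Slc17a7, high in excitatory classes, stood there at 7.64, 5.24, 3.17 and 2.93 CPM, from 27, 28, 10 and 11 UMIs. It was also highest in the wild-type library. The part of astrocyte or excitatory RNA in the Slc1a2 result was not tested. The directions of the Slc1a2 ratios did not hold under every setting. With doublets kept, the ratio of the total-labelled library was 0.82 [0.11, 1.58]. With nuclei thinned to 1000 UMIs it was 0.69 [-1.18, 3.14] and that of the neuron-labelled library 0.58 [-1.78, 3.26]. Both thinned intervals are wide and also hold the ratios given above. The astrocyte-labelled ratio was -0.029 with doublets kept and -0.47 [-1.10, 0.15] within the largest cluster of the class, short of 1.5-fold in both. In the remaining excitatory clusters Slc1a2 stood at 263, 183, 167 and 194 CPM, with ratios of -0.52 [-0.59, -0.45], -0.65 [-0.74, -0.56] and -0.44 [-0.52, -0.36]. The largest cluster of that group, led by Rorb and Igfn1, made up 31.3% of it in the wild-type library and 16.2% to 17.2% in the others, and within that cluster the ratios were -0.34, -0.04 and 0.02. Over the whole group the astrocyte-labelled ratio was called, with 7.55%, 9.19% and 6.92% of genes called in the 3 comparisons. In subicular or cortical nuclei the Slc1a2 ratios were -0.15, -0.17 and -0.27, and none was called. Within the largest cluster of that class they were -0.25 [-0.36, -0.15], -0.27 [-0.39, -0.15] and -0.14 [-0.24, -0.04]. The astrocyte-labelled ratio of the class was 0.047 at 1000 genes and 0.014 at resolution 2. In Lamp5 interneuron-like nuclei the neuron-labelled library was called lower, at -0.70 [-1.24, -0.18], where 8.38%, 11.7% and 13.4% of genes were called. The oligodendrocyte markers there summed to 199 CPM in the wild-type and 41.4 CPM in the neuron-labelled library. Oligodendrocyte-like nuclei had Slc1a2 at 10.0 and 41.9 CPM in these libraries, from 8 and 4 UMIs. The part of oligodendrocyte RNA in the result was not tested. In astrocyte-like nuclei the total-labelled ratio and the neuron-labelled ratio were -0.08 [-0.18, 0.03] and -0.07 [-0.17, 0.04], and with doublets kept they were -0.82 [-0.91, -0.73] and -0.25 [-0.35, -0.15].

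Slc1a3 in astrocyte-like nuclei had ratios of 0.41 [0.25, 0.57] for the total-labelled library and 0.19 [0.01, 0.36] for the neuron-labelled one, and of -0.39 and -0.06 with doublets kept. Oligodendrocyte markers summed to 444, 1166 and 1415 CPM in the astrocyte-like nuclei of these libraries, wild type first. Oligodendrocyte-like nuclei of the same libraries had Slc1a3 at 201, 226 and 209 CPM, and the part of oligodendrocyte RNA in the result was not tested. In dentate granule-like nuclei Slc1a3 had ratios of 0.34 [0.21, 0.47], 0.07 [-0.07, 0.22] and 0.29 [0.16, 0.43]. The 2 clusters of the class were unequally present: the Dsp and Glis3 cluster made up 71.5%, 53.6%, 64.9% and 65.3% of it, and within that cluster the ratios were 0.23 [0.09, 0.38], 0.14 [-0.01, 0.30] and 0.26 [0.11, 0.41]. The part of glial RNA in these ratios was not tested. Slc1a3 was called higher in CA1-like nuclei of the total-labelled library, at 1.04 [0.30, 1.82], from 22 and 55 UMIs. The oligodendrocyte markers in these nuclei were 66.8 CPM in the wild-type and 92.2 CPM in the total-labelled library, and their part in the result was not tested. The largest CA1-like cluster made up 67.5% of the wild-type and 60.4% of the total-labelled class. Within it the ratio was 1.46 [-0.08, 3.27]. In the CA1 comparisons 8.18%, 5.08% and 6.85% of genes were called. In CA2/CA3-like nuclei the ratios were 0.46 [0.10, 0.82], -0.12 [-0.50, 0.26] and 0.64 [0.27, 1.01], the last of them called. In these comparisons 7.35%, 4.15% and 7.07% of genes were called. Within the largest cluster, led by Ifi203 and Mndal, the total-labelled and neuron-labelled ratios had the other sign, at -0.30 and -0.56, while the Vgll3 and Col6a1 cluster had the higher levels given above. In the remaining excitatory clusters the neuron-labelled library was called lower, at -0.76 [-1.54, -0.01], from 48 and 23 UMIs and with 6.92% of genes called.

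Slc6a11 was called lower in Cck interneuron-like nuclei in all 3 comparisons, with 34.9 CPM in the wild-type library against 20.2, 20.2 and 16.8 CPM. In these comparisons 9.44%, 9.7% and 9.5% of genes were called. The ratios were -0.79 [-1.33, -0.25], -0.79 [-1.41, -0.19] and -1.05 [-1.61, -0.49], and they share the 61 UMIs of the wild-type library. With nuclei gated singly on markers they were -0.28, -0.21 and -0.22. With nuclei thinned to 1000 UMIs the neuron-labelled ratio was 0.15 [-1.75, 2.34], a wide interval that also holds the ratio given above. Oligodendrocyte markers summed to 159 CPM in the wild-type nuclei of this class against 39.1 to 53.8 CPM in the others. Oligodendrocyte-like nuclei had at most 3 UMIs of Slc6a11 per library, and the part of oligodendrocyte RNA in the result was not tested. In astrocyte-like nuclei the ratios were 0.02 [-0.50, 0.52] and -0.01 [-0.54, 0.51].

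Other genes of glutamate and GABA handling were taken from a list of 25, of which 23 were in all libraries. Glul, the glutamine synthetase of astrocytes, had 652, 492, 315 and 601 CPM in astrocyte-like nuclei. Glul was also found in mature oligodendrocyte-like nuclei, at 272 and 228 CPM in the wild-type and total-labelled libraries.

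Gad1, which encodes a GABA-synthesizing enzyme, was present in dentate granule-like nuclei without the vesicular GABA transporter. It stood there at 39.7, 45.8, 43.8 and 41.5 CPM, while Slc32a1 had 0.243, 0.276, 0.210 and 0.667 CPM. Gad2, the gene of the other GABA-synthesizing enzyme, stood at 0.789, 1.55, 2.03 and 2.37 CPM in the same nuclei. In CA1-like nuclei Gad1 was 1.00, 2.03, 1.01 and 1.47 CPM. Gad1 also reached 68.2 and 84.9 CPM in oligodendrocyte precursor-like nuclei, where Slc32a1 had 2 UMIs in each library.

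Of the pairs of a listed gene and a class, 4 were called higher and 7 lower of 178 in the total-labelled library, where 7.57% of all gene and class pairs were called. In the astrocyte-labelled library 7 were higher and 2 lower of 156, beside 7.69% of all pairs, and in the neuron-labelled library 6 were higher and 3 lower of 163, beside 7.97%. Among them, Slc25a22, a mitochondrial glutamate carrier, was called higher in CA1-like nuclei of the astrocyte-labelled and neuron-labelled libraries, with 8.09, 11.97, 12.4 and 12.8 CPM, where 5.08% and 6.85% of genes were called. Slc7a11, the cystine and glutamate exchanger, was called lower in astrocyte-like nuclei of both libraries with enough astrocytes, with 436 CPM in the wild-type, 251 CPM in the total-labelled and 285 CPM in the neuron-labelled library. In astrocyte-like nuclei 18.95% and 16.6% of all genes were called in these comparisons. The oligodendrocyte markers in these nuclei, given above for Slc1a3, were higher in both libraries than in the wild-type library, and their part in the result was not tested.

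The genes whose level across the 53 class and library points lay closest to each member were found among 14164 genes by Pearson correlation of log2 levels. The points share libraries and classes, so these values describe the pattern and carry no test. Slc17a7 lay closest to Bdnf (r = 0.94) and Neurod2 (0.92), and Slc17a6 to Tshz2 (0.82). Slc17a8 lay closest to Calcb (0.90), a calcitonin gene-related peptide gene, followed by Calca. Slc1a1 lay closest to Grm5 (0.87), Slc1a2 to Fads2 (0.83), Slc1a3 to Gm20342 (0.90) and Slc6a11 to F3 (0.86). Slc32a1 lay closest to Gad2 (0.97) and to Gm14204 (0.96). Gm14204 (chr2:158595472-158610723, - strand), a processed transcript, begins 43 bases before Slc32a1 on the other strand, inside the Slc32a1 window printed above. It stood at 79.6, 71.9, 82.8 and 65.7 CPM in Cck interneuron-like nuclei and below 1 CPM in dentate granule-like nuclei.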

How the data were processed

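The values are UMI counts deposited by the authors as 1 matrix per library, made from single-nucleus RNA with Cell Ranger ARC 2.0.0 on mm10, per the submitters' processing notes. No source used here gives the annotation release or the strand setting. The 8 transporter genes and the other gene lists were chosen with earlier results of these data known. Barcodes needed 500 detected genes and no more than 5% mitochondrial UMIs. Doublets were removed, called from simulated doublets at an expected 0.8% per 1000 barcodes. Nuclei were clustered (2000 variable genes without the members and listed genes, 30 principal components, 15 neighbours, leidenalg 0.10.2, resolution 1). A cluster was named when it held at least 3 markers of a type and led the next related type by 2; this naming rule was revised after the clusters were seen. UMIs were summed per class and library and divided by the class total (CPM). Levels needed 20 nuclei and ratios 50. Levels have exact Poisson, ratios exact conditional binomial and shares Clopper-Pearson intervals at 95%, which cover counting error only. A gene was called past 1.5-fold with 100 UMIs over the libraries and a pseudocount of 1 UMI. Named genes were the 8 members, listed genes such as Gad1, Gad2 and Glul with others past 1.5-fold, markers, and up to 3 nearest genes per member by Pearson correlation of log2(CPM + 1). Clusters are called by their leading genes. Some listed genes are not reported here. Alternatives were TMM factors (edgeR 4.0.16), other resolutions and filters, doublets kept, a marker gate per nucleus, male nuclei only, thinning to 1000 UMIs, other thresholds and, added after seeing the data, the largest cluster of each class. The ratio procedure was tested on simulated data.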

Additional observations from a re-analysis of the deposited data

Results flagged for a closer look

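Slc1a3 lay on opposite sides of the wild-type library in 2 classes of the neuron-labelled library. Its log2 ratio to the wild-type library was 0.64 in CA2/CA3-like nuclei, from 105 wild-type and 161 neuron-labelled UMIs, and -0.76 in the excitatory clusters outside the named regions, from 48 and 23 UMIs. Neither direction held under every setting. The first was -0.56 [-1.17, 0.04] within the largest cluster of its class, and the second was 0.0058 [-2.04, 1.98] at clustering resolution 0.5. Within the largest clusters both were negative, at -0.56 and -0.50. The difference between the classes was not tested, since each genotype has 1 library.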

How the results depend on the processing

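No paired analysis was possible because there is 1 library per genotype, and for the same reason no replicate was left out. All values here are log2 ratios to the wild-type library unless counts are named, and the cause of each change was not tested. With TMM factors, 154 of 154 ratios stayed within their counting intervals. Thinning to 1000 UMIs took 72 ratios outside their interval, some of them past 0. It turned the sign of another 6 whose interval had excluded 0, and left 68 within their interval. The same counts were, for keeping doublets, 20, 4 and 130, the marker gate 27, 3 and 96, and male nuclei 29, 3 and 99. They were 7, 2 and 142 at 1000 genes, 13, 1 and 89 at resolution 0.5, and 10, 2 and 142 at resolution 2. For the largest cluster of each class, chosen after seeing the data, they were 24, 7 and 59. Not every ratio could be formed under every setting. Thinned ratios rest on fewer UMIs, so their own intervals are wider.

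In the total-labelled library, Slc17a7 in CA1 was -0.078 in the main setting, 0.044 in male nuclei and 0.048 thinned. Slc1a3 in CA2/CA3 was -0.30 in the largest cluster. Slc17a8 in Cck nuclei was -0.22 with doublets, -0.18 gated and -0.088 thinned. Slc1a2 in Pvalb nuclei was 0.82 with doublets and 0.69 thinned. In astrocyte-like nuclei Slc1a2 was -0.82 with doublets, -0.23 at 1000 genes and -0.19 thinned, and Slc1a3 was -0.39 with doublets and 0.21 thinned. Slc32a1 over inhibitory nuclei was -0.22 with doublets and -0.23 thinned.

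In the astrocyte-labelled library, Slc17a7 in the remaining excitatory clusters was -0.095 in the main setting. It was 0.093 gated, 0.0030 in male nuclei and 0.033 in the largest cluster. In subicular or cortical nuclei it was -0.12 in the main setting, 0.017 in male nuclei and 0.17 in the largest cluster. Slc1a2 in subicular or cortical nuclei was -0.17 in the main setting, 0.047 at 1000 genes and 0.014 at resolution 2. In Cck nuclei Slc1a2 was -0.52 in the main setting and 0.0087 thinned.

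In the neuron-labelled library, Slc17a7 in male nuclei was -0.14 in CA1, -0.14 in CA2/CA3 and -0.11 in dentate granule nuclei. It was -0.025 in thinned CA2/CA3 nuclei and -0.13 in the largest subicular cluster. Slc17a6 in subicular or cortical nuclei was -0.058 at 1000 genes, -0.11 at resolution 2, -0.038 gated and -0.038 in the largest cluster. Slc17a8 in Cck nuclei was -0.35 gated and -0.62 thinned, and Slc6a11 there 0.15 thinned. Slc1a2 in Pvalb nuclei was 0.58 thinned, and in astrocyte-like nuclei -0.25 with doublets, where Slc1a3 was -0.064. Slc1a3 was -0.56 in the largest CA2/CA3 cluster. In the remaining excitatory clusters Slc1a1 was 0.17 in the main setting and -0.16 in the largest cluster. Slc1a2 was 0.024 in the largest cluster there, and Slc1a3 was 0.0058 at resolution 0.5. Slc32a1 over inhibitory nuclei was -0.22 thinned.

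Member and class pairs past 1.5-fold were 3 of 54 (5.56%, beside 7.57% of all gene and class pairs) in the total-labelled library. They were 11 of 66 with doublets (beside 10.04% of all pairs), 5 of 54 at resolution 2 (7.73%), 9 of 57 gated (8.86%), 6 of 44 in male nuclei (8.05%), 1 of 32 thinned (7.87%), 10 of 77 at 20 UMIs (16.9%) and 2 of 54 past 2-fold (1.48%). In the astrocyte-labelled library they were 4 of 47 (7.69%), and 8 of 53 with doublets (8.16%), 5 of 45 at resolution 2 (7.69%), 8 of 51 gated (9.16%), 2 of 37 in male nuclei (9.34%), 4 of 26 thinned (10.3%), 6 of 48 at 1000 genes (7.50%), 14 of 64 at 20 UMIs (16.6%) and 1 of 47 past 2-fold (1.25%). In the neuron-labelled library they were 5 of 50 (7.97%), and 12 of 62 with doublets (10.6%), 4 of 48 at resolution 2 (7.95%), 8 of 54 gated (8.68%), 5 of 37 in male nuclei (8.94%), 1 of 28 thinned (10.6%), 18 of 69 at 20 UMIs (17.3%) and 2 of 50 past 2-fold (1.26%). With doublets kept, gated, at resolution 2 or past 2-fold, the members' share was thus above that of all genes in each library. Under each other setting, and in the main setting, it was above in part of the libraries and below in the rest. These shares rest on few pairs and are not a result about the members.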

Other observations

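Several clusters without a cell type name carried transporter patterns of their own. The cluster led by Ebf2, Ebf3 and Samd3 had Slc17a6 at 382 CPM in the wild-type library and 379 CPM in the total-labelled library, against 295 and 335 CPM in the Cajal-Retzius-like nuclei of these libraries. The cluster led by Shisa8 and Stat4 had Slc17a6 at 189 and 205 CPM in the same libraries, and Slc17a6 itself was among its leading genes. Slc17a7 was detected there in 64.1% and 48.3% of the nuclei with Slc17a6 and in 65.6% and 42.2% of those without.

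The cluster led by Ebf1, Baiap3 and Six3 came almost wholly from the total-labelled library, with 943 of its 1050 nuclei, against 34, 62 and 11 in the wild-type, astrocyte-labelled and neuron-labelled libraries. Slc17a6 stood there at 82.9, 91.6 and 125 CPM and Slc32a1 at 37.7, 52.1 and 45.6 CPM in the wild-type, total-labelled and astrocyte-labelled libraries. In the total-labelled library Slc32a1 was detected in 4.90% of the nuclei with Slc17a6 and in 24.9% of those without, at a median depth of 4767 UMIs.

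The cluster led by 9630013A20Rik, Cnksr3, Enpp6 and Bcas1, of which Enpp6 and Bcas1 are known from newly forming oligodendrocytes, had the highest Slc1a1 level of all clusters when the libraries were pooled. It stood at 617 CPM in 38 nuclei of the wild-type library and at 669 CPM in 100 nuclei of the total-labelled library. Oligodendrocyte precursor-like nuclei had 220 and 255 CPM and mature oligodendrocyte-like nuclei 8.78 and 10.0 CPM in these libraries. Slc1a3 in the same cluster was 13.5 and 6.50 CPM, from 3 and 2 UMIs, below both the precursors and the mature oligodendrocytes.

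The clusters led by Zic4, Ano1 and Col6a3 and by Hapln1, Sfta3-ps and Sema3c were inhibitory by Slc32a1. The first had 84.0, 78.7, 67.5 and 125 CPM and the second 67.7, 67.8, 73.3 and 79.5 CPM, in the range of the named interneuron classes except for the first in the neuron-labelled library.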
